A study of Mus musculus with 28 samples.

Results

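The genes described here are *Haghl* (ENSMUSG00000061046.9), *Hagh* (ENSMUSG00000024158.17), *Glo1* (ENSMUSG00000024026.13) and *Park7* (ENSMUSG00000028964.14), 4 genes tied to the detoxification of methylglyoxal. They were picked by symbol, and *Haghl* was picked because its counts were higher in drinking mice, so its differences from Water are described without a test. All 4 are among the 49477 genes listed for both batches and among the 16266 that averaged 10 or more counts over the 28 mice and were tested. RNA-seq counts came from amygdala of adult female C57BL/6J mice, bought at 7 weeks of age, in 2 independent batches. Over 28 days of 2-bottle choice, the Water group (4 first-batch and 6 second-batch mice) had water alone, the Acute group (4 and 5 mice) had 20% ethanol on 1 day, and the Chronic group (3 and 6 mice) had it every other day, on 14 days in all. Tissue was taken on day 29 as 1 mm micropunches that held both the basolateral and the central amygdala, so a level is an average over both nuclei and all their cells, in which fewer cells of a type and less RNA per cell cannot be told apart.

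Methylglyoxal is a reactive by-product of glycolysis that damages proteins and DNA and leads to advanced glycation end products. In the glyoxalase pathway, *Glo1* (glyoxalase 1) turns the adduct of methylglyoxal and glutathione into S-D-lactoylglutathione. *Hagh* (glyoxalase 2) hydrolyses that intermediate to D-lactate and returns the glutathione. *Haghl* is a paralog of *Hagh* from the same family of metal-dependent hydrolases, and its substrate is less well known. *Park7* encodes DJ-1, a redox-sensitive protein whose loss causes a familial form of Parkinson disease and to which a glutathione-independent action on methylglyoxal has been ascribed. In mice, *Glo1* is also known from work on anxiety-like behavior.

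*Haghl* and *Hagh* are the pair whose counts could most easily be mixed up, so their coding sequences were compared. The longest coding sequence of *Hagh* in GENCODE M21 has 927 bases and that of *Haghl* has 849, and 480 of the 773 bases that align (62.1%) are identical. Their closest stretch of 60 bases within 1 exon of each gene is shown because it holds their longest shared run, with the 14 bases that differ in capitals (GRCm38, *Hagh* on the plus strand at chr17:24852817-24852876, *Haghl* on the minus strand at chr17:25785034-25785093).

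Hagh: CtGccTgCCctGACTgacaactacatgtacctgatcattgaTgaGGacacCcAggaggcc

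Haghl: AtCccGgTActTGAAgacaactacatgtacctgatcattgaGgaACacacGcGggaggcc

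That run is 26 bases long, and the transcripts of the 4 genes share no stretch of 31 bases with each other, the word length at which shared sequence was counted.

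*Haghl*, *Hagh* and *Glo1* lie on chromosome 17, at 25779843 to 25785673 (minus strand), 24840143 to 24864450 (plus strand) and 30584936 to 30626871 (minus strand), and *Park7* lies on chromosome 4 at 150897133 to 150914437 (minus strand). Upstream sequence of *Haghl*, *Hagh* and *Park7* is shown because these 3 genes could be read in both batches and their covariation between mice was tested. Each sequence is from the RefSeq table of GRCm38.p6, which has an entry for all 4 genes. It covers what lies outside annotated exons among the 250 bases before the gene's first listed start, read 5′ to 3′ on the gene's strand, at chr17:25785674-25785836 for *Haghl*, chr17:24850365-24850489 for *Hagh* and chr4:150909927-150910171 for *Park7*. Capitals mark matches on either strand to a GC box (GGGCGG) or a CCAAT box (CCAAT).

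Haghl: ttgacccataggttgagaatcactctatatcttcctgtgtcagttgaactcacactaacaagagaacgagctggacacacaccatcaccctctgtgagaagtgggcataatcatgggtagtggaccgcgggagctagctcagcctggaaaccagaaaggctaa

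Hagh: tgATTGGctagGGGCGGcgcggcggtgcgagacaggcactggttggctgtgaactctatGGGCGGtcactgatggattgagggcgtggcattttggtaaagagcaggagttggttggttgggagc

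Park7: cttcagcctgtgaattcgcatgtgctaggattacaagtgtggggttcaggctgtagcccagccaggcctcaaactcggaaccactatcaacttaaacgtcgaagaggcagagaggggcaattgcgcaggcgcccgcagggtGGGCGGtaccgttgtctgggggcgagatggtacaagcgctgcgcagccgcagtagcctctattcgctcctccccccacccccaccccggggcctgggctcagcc

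*Hagh* held 2 GC boxes in its 250 bases, *Park7* held 1, *Glo1* held 3 and *Haghl* held 0, and 32.7% of the 32851 promoters of the table held at least 1. The CCAAT box was found once each for *Haghl*, *Hagh* and *Glo1* and not for *Park7*, against 33.8% of all promoters. The match of *Haghl* is not in the printed bases, which leave out 87 exonic bases of its window. The core of the antioxidant response element (TGACNNNGC), through which Nrf2 acts, was in none of the 4 windows and in 10.2% of all promoters.

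Total counts per mouse ran from 20004380 to 22569562. The p-values measure the spread between mice. All 10 neuron markers and all 8 amygdala markers were measured, the lowest of them *Rbfox3* with a mean of 5140 counts and *Crh* with 142. Levels of a gene are given as TMM-normalized counts. Differences between groups are log2 fold changes from edgeR, fitted with a term for batch, and p-values were adjusted over all 16266 genes. The Acute and Chronic comparisons share their Water mice, so they are not independent of each other.

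*Haghl* was higher in both drinking groups, by 13.3% in Acute and 15.3% in Chronic mice. In the first batch, the 4 Water mice had 843.5, 802.3, 856.4 and 790.0 normalized counts, the 4 Acute mice 939.8, 954.8, 939.7 and 905.5, and the 3 Chronic mice 889.1, 961.9 and 978.1. Neither drinking group overlapped with Water there. In the second batch, the 6 Water mice ran from 827.8 to 1047.3 (median 966.55), and the 5 Acute mice had 1126.1, 1094.3, 1130.8, 1022.3 and 1016.0. The 6 Chronic mice ran from 1048.5 to 1148.3 (median 1106.05). All 6 Chronic mice lay above every Water mouse of the second batch, the lowest at 1048.5 against 1047.3, and 3 of the 5 Acute mice did. Over all genes, groups lay apart with drinking mice higher for 2.25% (Acute) and 2.24% (Chronic) of genes in the first batch and for 0.387% (Chronic) in the second. Across both batches the means were 901.2 ± 93.61 (SD, n = 10) in Water, 1014.4 ± 85.9 (n = 9) in Acute and 1050.0 ± 88.36 (n = 9) in Chronic mice.

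**Figure D1:**
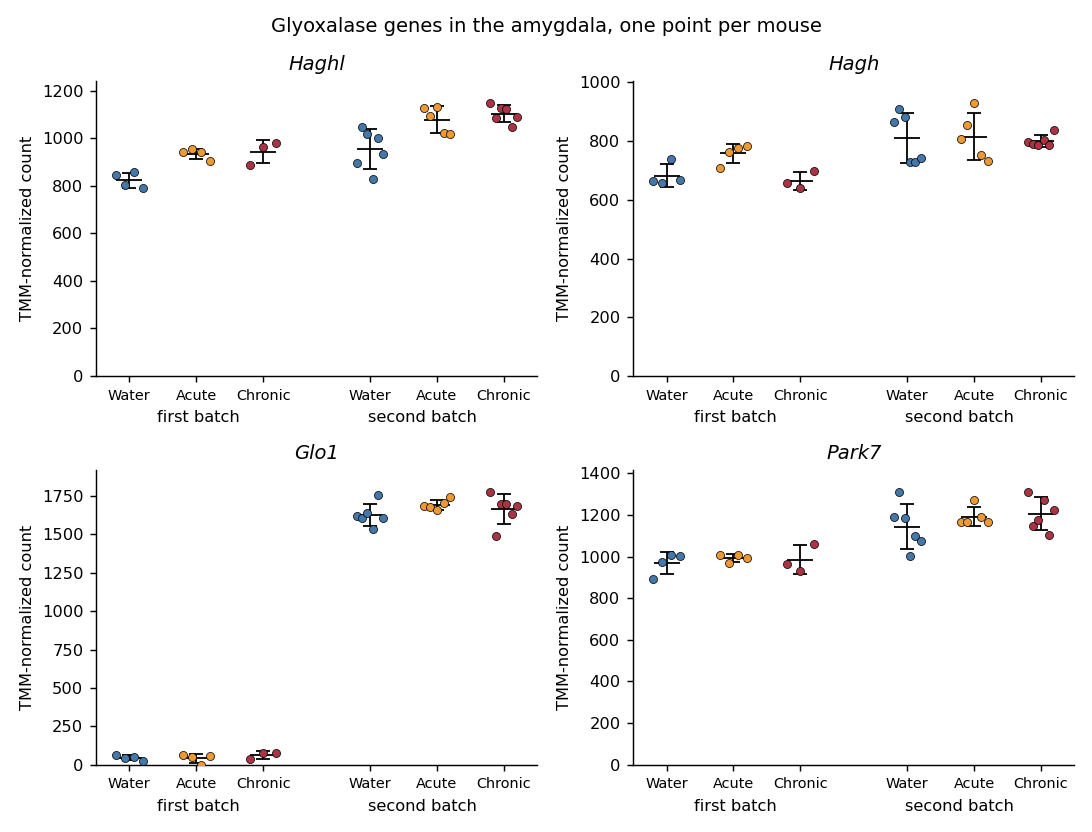
TMM-normalized counts (linear axes from 0) of the 4 genes in each mouse, by batch and group, with bars for the mean and SD. The mean of *Haghl* was higher in Acute and Chronic than in Water mice in both batches, its Acute and Water mice overlapped in the second batch, *Hagh* and *Park7* overlapped with Water in both batches, and *Glo1* stayed between 0 and 78.4 in the first batch.

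The log2 fold change of *Haghl* was 0.18 ± 0.036 (SE) in Acute and 0.21 ± 0.0359 in Chronic mice. Within the first batch alone it was 0.18 and 0.20, and within the second alone 0.18 and 0.21. With the batch's Water mean as the reference, 9 of 9 Acute and 9 of 9 Chronic mice were above it. A gain in every drinking mouse was found for 1.69% of all genes in Acute and 1.68% in Chronic mice; since *Haghl* was selected on these contrasts, nothing is read from that count. Beside these differences, the mean log2 CPM of the 8 amygdala markers, with batch means removed, was 0.08 ± 0.142 (SD) for the Acute group, 0.015 ± 0.197 for the Chronic group and -0.085 ± 0.135 for the Water group. *Nts*, 1 of these 8 markers, is a gene that the study listed as changed in its Acute mice. For 7 striatum markers the mean was, in the same order, 0.183 ± 0.339, -0.232 ± 0.425 and 0.045 ± 0.799. For 6 choroid plexus markers it was -0.039 ± 2.002, -0.177 ± 1.953 and 0.194 ± 1.626. The part of these scores in the difference of *Haghl* was not tested. The SD of the log2 level of *Haghl* within batch and group was 0.0797, and 35.0% of the 4769 genes within 2-fold of its mean count had a lower one.

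*Narfl*, which encodes a cytosolic iron-sulfur protein assembly factor, runs into *Haghl* from the opposite strand, from 25773776 to 25783332. The genes share 544 exonic bases, which are 20.6% of the exonic bases of *Haghl* and 8.7% of those of *Narfl*. Whether the counting used strand is not given in the sources used here, so reads from the shared bases cannot be told apart. *Narfl* had log2 fold changes of -0.04 ± 0.0518 in Acute (edgeR adjusted p = 0.837) and 0.04 ± 0.0516 in Chronic mice (adjusted p = 0.826), with Acute means of 421.5 (first batch) and 461.0 (second) and Chronic means of 415.3 and 508.2 against Water means of 433.5 and 475.6. Of the nearest expressed genes, *Metrn*, which encodes the glial factor meteorin, was 7548 bases away and had log2 fold changes of 0.15 and 0.12 (edgeR adjusted p = 0.533 and 0.609). *Chtf18*, which acts in sister chromatid cohesion, was 52424 bases away, with -0.31 and -0.06 (adjusted p = 0.543 and 0.921).

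*Hagh*, the glyoxalase 2 gene, was not called in either drinking group. In the first batch, normalized counts were 664.7, 658.9, 739.2 and 666.7 in Water, 710.0, 762.9, 776.5 and 784.1 in Acute, and 655.8, 639.5 and 699.8 in Chronic mice. The Acute mice of that batch were higher than all but 1 Water mouse, and the Chronic mice lay within or just under the Water range. In the second batch, Water mice ran from 728.8 to 908.9 (median 804.05), the 5 Acute mice had 807.8, 853.9, 930.2, 751.1 and 733.2, and Chronic mice ran from 786.1 to 839.1 (median 793.4). The Water mice of that batch split into 3 at 866.0 to 908.9 and 3 at 728.8 to 742.1, with a CV of 10.5%, while the 6 Chronic mice had a CV of 2.5%; the difference in spread was not tested.

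The log2 fold change of *Hagh* was 0.07 ± 0.0481 in Acute (edgeR adjusted p = 0.643, interval of 2 SE from -0.024 to 0.168) and -0.02 ± 0.0482 in Chronic mice (adjusted p = 0.921, -0.116 to 0.076). With offsets for gene GC content and length the values were 0.0426 and -0.0607. Within the first batch the Acute value was 0.15 and within the second 0.01. A test of that difference between batches gave -0.14 (edgeR interaction, adjusted p = 0.999). Between the drinking groups, *Hagh* had a log2 fold change of -0.09 ± 0.0495 in Chronic against Acute mice (p = 0.0734, edgeR adjusted p = 0.998), which was -0.19 in the first batch alone and -0.03 in the second. Exact permutation of the group labels within batches gave p = 0.222 for Acute, 0.667 for Chronic and 0.0806 between the drinking groups (2-sided, 0.459 to 0.873 adjusted over 9 tests). *Fahd1*, a mitochondrial acylpyruvase gene that lies within the span of *Hagh* on the other strand with no shared exonic base, had log2 fold changes of 0.11 and 0.04 (edgeR adjusted p = 0.588 and 0.886).

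*Glo1*, the glyoxalase 1 gene, could be read in the second batch alone, because it was almost absent from the first. In the first batch its raw counts were 66, 43, 54 and 25 in Water, 71, 57, 0 and 59 in Acute, and 40, 87 and 84 in Chronic mice. In the second batch they ran from 1449 to 1746 over 17 mice. Mean CPM (counts scaled to the library total) was 2.43 there and 77.7 in the second batch, a 32.0-fold gap, while *Haghl*, *Hagh* and *Park7* differed 1.11-fold, 1.10-fold and 1.15-fold. Other genes were compared only if they averaged 100 or more counts in the second batch, and only for a lower first-batch level. Genes lower in the second batch were not counted, so whether such gaps run in 1 direction was not tested. Of 11576 genes compared, 53 (0.458%) were below an eighth of their second-batch level in the first batch. Of these, 39 were among the 1054 genes on chromosomes 17 to 19 (3.7%) and 14 among the 10522 elsewhere (0.133%). On chromosome 17, which holds *Glo1*, it was 8 of 533 genes (1.5%), against 18 of 265 on chromosome 18 (6.79%) and 13 of 256 on chromosome 19 (5.08%). Within 500000 bases of *Glo1*, *Abcg1*, a cholesterol exporter gene, went from 0.037 to 80.4 CPM between the batches, while *Zfand3* had 73.6 and 75.1 CPM, and *Btbd9* and *Glp1r* were listed for the second batch alone. The cause was not tested.

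**Figure D2:**
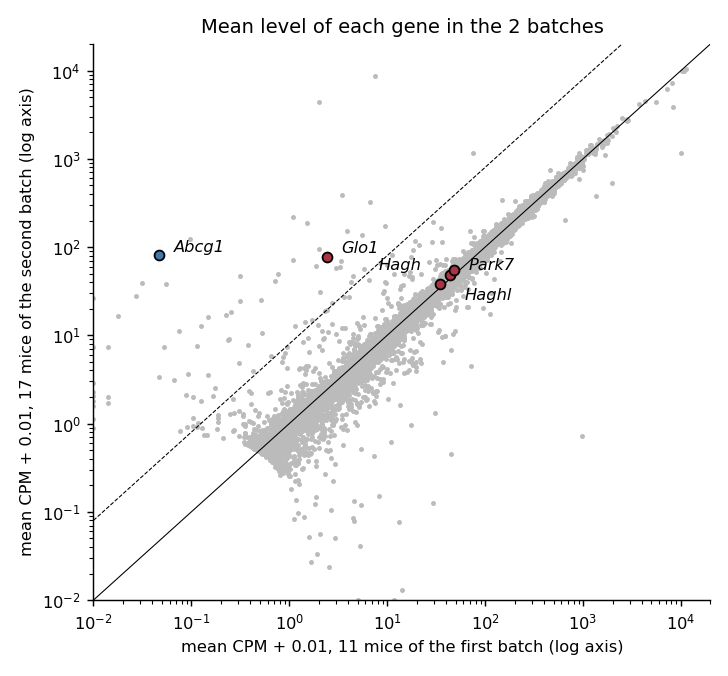
Mean CPM plus 0.01 of the 16266 genes in the 11 mice of the first batch against the 17 mice of the second (both axes log), with the diagonal solid and an 8-fold gap dashed. *Haghl*, *Hagh* and *Park7* lie near the diagonal, and *Glo1* lies above the dashed line with 2.43 and 77.7 CPM, as does its neighbor *Abcg1* with 0.037 and 80.4 CPM.

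In the second batch, normalized counts of *Glo1* ran from 1535.8 to 1753.7 (median 1613.75) in Water, were 1682.9, 1676.4, 1657.8, 1703.2 and 1743.8 in Acute, and ran from 1491.9 to 1779.0 (median 1690.55) in Chronic mice. All 5 Acute mice were above the Water mean, but 0 of 5 were above every Water mouse, and the Chronic mice covered a wider range than the Water mice. With that batch alone, the log2 fold change was 0.06 ± 0.0417 in Acute (edgeR adjusted p = 0.904) and 0.03 ± 0.0398 in Chronic mice (adjusted p = 0.763). Exact permutation gave p = 0.0844 over 462 regroupings and p = 0.478 over 924. Over both batches the edgeR values were 0.04 ± 0.148 (adjusted p = 0.96) and 0.10 ± 0.144 (adjusted p = 0.853). The Acute value ran from -0.1182 (ComBat-seq and edgeR) to 0.0584 (second batch alone) over the alternatives, and from 0.0038 without Water mouse 43 to 0.1033 without Acute mouse 35. The Chronic value ran from 0.0326 (second batch alone) to 0.5061 (first batch alone), with 0.1966 for DESeq2, and from 0.0624 without Chronic mouse 38 to 0.1359 without Chronic mouse 2. The pseudogene *Gm13443*, which shares 454 of the 12171 stretches of 31 bases in *Glo1*, had a mean of 0.29 counts.

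*Park7*, the DJ-1 gene, showed small differences that stayed within the spread of the mice. In the first batch, normalized counts were 890.4, 973.8, 1006.8 and 1001.9 in Water, 1008.0, 969.6, 1010.2 and 992.5 in Acute, and 962.2, 931.3 and 1062.0 in Chronic mice. In the second batch, Water mice ran from 1002.6 to 1312.6 (median 1141.65), Acute mice had 1167.1, 1166.4, 1271.5, 1189.3 and 1166.5, and Chronic mice ran from 1106.0 to 1311.3 (median 1201.15). The groups overlapped in both batches, and in the second the Water mice held both the lowest and the highest value. Against the Water mean of their batch, 9 of 9 Acute and 6 of 9 Chronic mice were higher. The log2 fold change was 0.05 ± 0.0409 in Acute (edgeR adjusted p = 0.702, interval of 2 SE from -0.03 to 0.133) and 0.06 ± 0.0409 in Chronic mice (adjusted p = 0.647, -0.024 to 0.14), with exact permutation p = 0.202 and 0.237. Without Water mouse 4 of the second batch the log2 fold changes were 0.031 and 0.0359, and without Water mouse 2 they were 0.0726 and 0.0834. Without mouse 2, *Park7* had an unadjusted edgeR p under 0.05 in Chronic against Water mice. With offsets for gene GC content and length the log2 fold changes were 0.0247 and 0.0225.

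In Acute mice, 0 of the 3 genes open to a test (*Hagh*, *Glo1* and *Park7*) passed the adjusted edgeR threshold, as did 0 of all 16266 genes (0%). In Chronic mice it was 0 of 3, against 0.0184% of all genes, and in Chronic against Acute mice 0 of 4, against 0%. At an unadjusted p under 0.05 the count was 0 in each of the 3 comparisons, where 9.52%, 10.5% and 4.44% of all genes passed. In the first batch alone and with ComBat-seq and DESeq2, *Hagh* passed unadjusted in Acute against Water mice. It passed unadjusted in Chronic against Acute mice with both of these, with ComBat-seq and edgeR, with limma-voom and with offsets for gene GC content and length. DESeq2, limma-voom and ComBat-seq called 0 of these genes after adjustment too. *Haghl*, open to a test only between the drinking groups, had a log2 fold change of 0.03 ± 0.0368 in Chronic against Acute mice (edgeR adjusted p = 0.999), with an interval of 2 SE from -0.048 to 0.099. The Acute and Chronic effects of *Hagh*, *Glo1* and *Park7* were also compared between the batches, and the adjusted p of the interaction ran from 0.88 to 0.999.

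**Figure D3:**
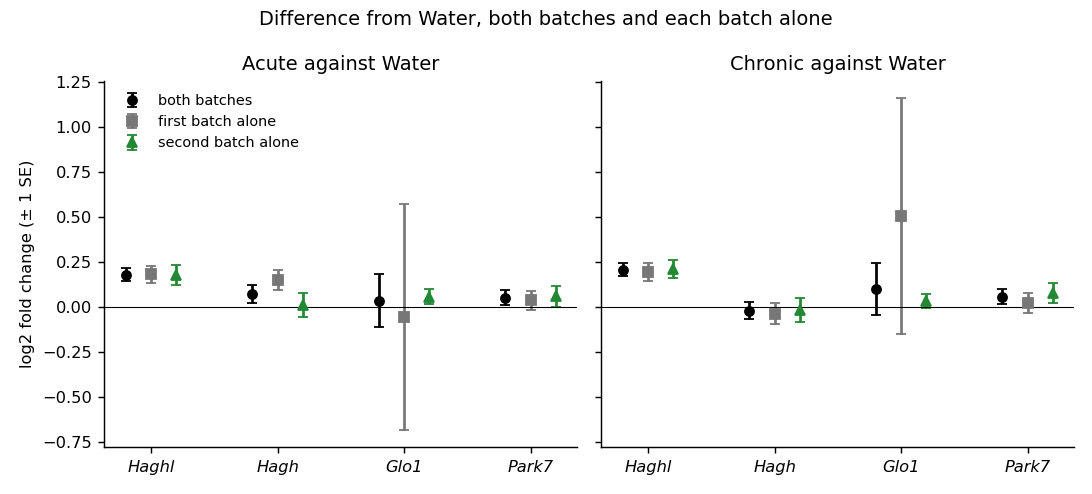
Log2 fold change against Water of the 4 genes with 1 SE, fitted over both batches, the first batch alone and the second alone, for Acute and Chronic mice. *Haghl* has near-equal values in all 3 fits, between 0.18 and 0.21, whereas *Glo1* in the first batch alone has the widest bars.

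Per kilobase of the median coding transcript, the levels of the 4 genes were ordered in the second batch's Water mice, and the order depends on the length used. That length was 1161 bases for *Haghl* and 804 for *Hagh*, which is shorter than the longest coding sequence of *Hagh* (927 bases). *Glo1* had a median of 1590 normalized counts per kilobase (1520 to 1730), *Park7* 1430 (1260 to 1640), *Hagh* 1000 (906 to 1130) and *Haghl* 833 (713 to 902). *Glo1* overlapped *Park7*, and *Haghl* lay just under *Hagh* without overlap, at 902 against 906. In the first batch, *Park7* led with 1240, then *Hagh* with 828 and *Haghl* with 709, and *Glo1* had 45.9. With the union of all exons as the length, *Glo1* moved to the last place in the second batch, with 133 against 461 for *Park7*, 421 for *Hagh* and 366 for *Haghl*, since 1 count per kilobase then rests on 12101 bases of *Glo1*. On that scale *Haghl* (313 to 396) overlapped *Hagh* (382 to 476), which overlapped *Park7* (404 to 529).

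Among the mice of the same batch and group, *Hagh* and *Park7* rose and fell together. Over the log2 CPM residuals of 28 mice, their Pearson r was 0.666 (permutation p = 0.00026, 0.00156 adjusted over 6 pairs) and their Spearman rho was 0.652 (permutation p = 0.0005, adjusted 0.003). Within batches it was 0.505 (first) and 0.707 (second), and it was 0.559 without the 2 mice farthest from the median of *Hagh*. *Haghl* had an r of 0.523 with *Hagh* (permutation p = 0.00999, adjusted p = 0.02) and a rho of 0.438 (p = 0.0306, adjusted p = 0.0917). It had an r of 0.554 with *Park7* (permutation p = 0.00496, adjusted p = 0.0149) and a rho of 0.359 (p = 0.0777, adjusted p = 0.117). Both rested in part on Water mice 2 and 4 of the second batch: without them r fell to 0.347 and 0.26, and in the first batch alone r was 0.348 and 0.0424. *Glo1* had an r of -0.0711 with *Hagh*, 0.0939 with *Haghl* and -0.0681 with *Park7* (permutation p = 0.536 to 0.656, adjusted 0.656 for each). In the second batch alone, those values were -0.137, 0.355 and 0.344. By ranks over the 28 mice, *Glo1* and *Haghl* had a rho of 0.305 (permutation p = 0.0593, adjusted p = 0.117).

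**Figure D4:**
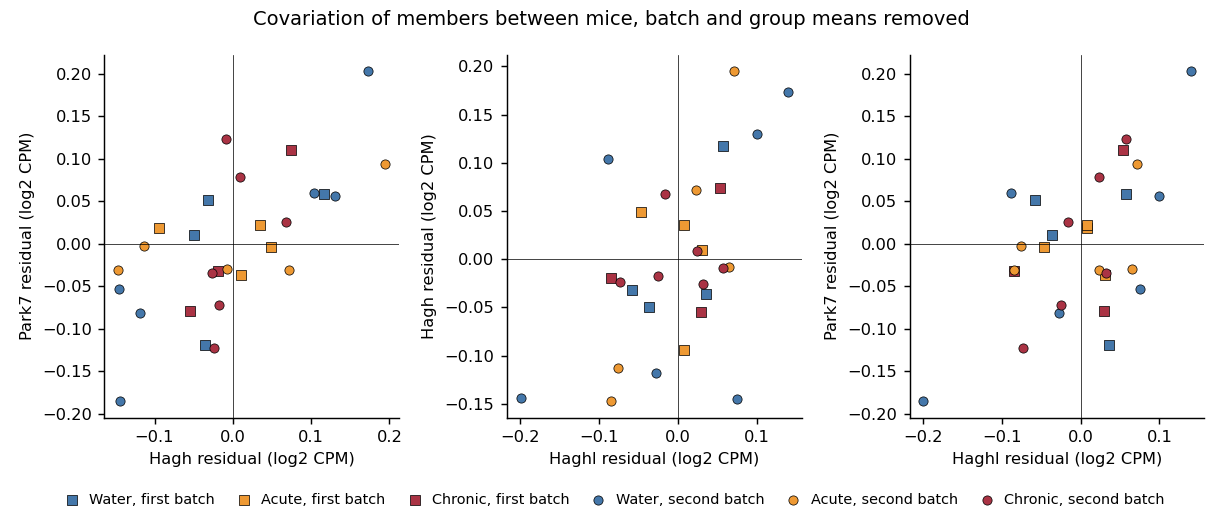
Residual log2 CPM of pairs of genes in the 28 mice after batch and group means were removed, squares for the first batch and circles for the second, colored by group. *Hagh* and *Park7* (r = 0.666) vary together most closely, and Water mice 2 and 4 of the second batch sit at opposite ends in the panels of *Haghl*.

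These correlations were read beside library size and cell markers, since all genes of a mouse share its library. None of 28 correlations of the 4 genes with the library total or with 6 marker scores passed at an adjusted p under 0.05 by permutation, and 3 passed unadjusted; the lowest adjusted p was 0.119, for *Hagh* with the neuron score (r = 0.403) and with the microglia score (r = 0.56). The third was *Park7* with the microglia score (r = 0.464, permutation p = 0.0271, adjusted p = 0.253). The microglia score had an r of 0.676 with *Hagh* and 0.607 with *Park7* in the second batch alone, and of -0.31 and -0.403 in the first. Whether cell makeup takes part in the covariation was not tested beyond these values. Scores of amygdala, oligodendrocyte precursor and choroid plexus markers were not among the 6. An r of 0.656 for *Haghl*, 0.646 for *Hagh* and 0.678 for *Park7* marks the highest 1% of 11722 genes that averaged 100 or more counts, and the median r over those genes was 0.037, 0.025 and 0.044. The link of *Hagh* with *Park7* thus falls within the top 1% for *Hagh* and just under it for *Park7*.

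The genes closest to each member over the 28 mice, by residual Pearson r, are given as a description. For *Haghl* they were *Babam1* (0.81), *Aamp* (0.809), *Sdhb* (0.807), *Trappc3* (0.799) and *Arpc5l* (0.792), of which *Babam1* had log2 fold changes of 0.01 and 0.00 and *Sdhb* 0.12 and 0.06 in Acute and Chronic mice. For *Hagh* they were *Arhgdig* (0.858), also on chromosome 17, *Selenow* (0.815), *Rheb* (0.808), *Atp6v0b* (0.80) and *Brk1* (0.79), and for *Park7* they were *Ube2m* (0.81), *Ndufb6* (0.803), *Nudt19* (0.793), *Mex3d* (0.79) and *Eif3g* (0.79). *Sdhb* and *Ndufb6* encode subunits of mitochondrial complexes II and I, and *Rheb* encodes an activator of mTORC1. For *Glo1* the leading genes included *Cemip2* (0.691), *Gm6472* (0.667), *Pcx* (0.653) and *Usp53* (0.648), and in the second batch alone their r was -0.178, 0.271, -0.312 and 0.376, in that order.

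Other routes that clear methylglyoxal gave no adjusted call. Of 13 measured genes of aldo-keto reductases, aldehyde dehydrogenases and related enzymes (14 listed), 10 had a positive log2 fold change in Acute and 10 in Chronic mice, with medians of 0.04 and 0.04 against 0.00 and 0.00 over all genes. In each comparison 2 had an unadjusted p under 0.05 with higher counts and 0 with lower counts, where 5.07% and 4.81% of all genes were higher and 4.45% and 5.65% lower, and 0 passed after adjustment. Both were the same aldo-keto reductases: *Akr1a1*, aldehyde reductase, had log2 fold changes of 0.08 and 0.08 (edgeR adjusted p = 0.454 in Chronic mice) and *Akr1b3*, aldose reductase, 0.10 and 0.10 (adjusted p = 0.455). *Dcxr*, which reduces dicarbonyls, had 0.18 and 0.22 on a mean of 47.93 counts, *Akr7a5* 0.07 and 0.10, *Akr1b10* 0.04 and 0.06 and *Akr1b8* -0.01 and 0.07. *Aldh2*, the mitochondrial enzyme that clears acetaldehyde after ethanol, had -0.05 and 0.01 (adjusted p = 0.983 in Chronic mice), and *Aldh1a1*, a cytosolic aldehyde dehydrogenase, 0.14 and -0.09. *Aldh3a2*, *Aldh7a1* and *Aldh9a1* lay between -0.02 and 0.04 in both comparisons, *Pnkd* had 0.06 and 0.04, and *Glod4*, a gene of the glyoxalase domain family, had 0.03 and -0.05.

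Hydrolases of the fold that *Hagh* and *Haghl* share, the metallo-beta-lactamase fold, gave no adjusted call. Of 13 genes, 10 had a positive log2 fold change in Acute and 8 in Chronic mice, against 50.6% and 51% of all genes. *Ethe1*, a mitochondrial persulfide dioxygenase, was the 1 gene with an unadjusted p under 0.05, in Acute mice, where 5.07% of all genes were higher at that p. Its log2 fold change was 0.19 there (p = 0.00446, edgeR) and 0.12 in Chronic mice (p = 0.0728). *Mblac1* had 0.02 and 0.16, *Lactb2* -0.02 and -0.05 and *Cpsf2*, of the pre-mRNA cleavage complex, -0.03 and -0.05. The medians were 0.05 and 0.04, below the 0.18 and 0.21 of *Haghl*, which was chosen for its value.

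Genes of glycolysis, of which methylglyoxal is a by-product, and genes of glutathione supply gave no adjusted call. Of 15 measured glycolysis genes (16 listed), 3 were higher at an unadjusted p under 0.05 in Acute mice, against 5.07% of all genes. They were *Ldhb* (lactate dehydrogenase B) with 0.11, *Aldoc* (aldolase C) with 0.10 and *Eno2* (neuronal enolase) with 0.06. In Chronic mice it was 0, against 4.81% of all genes. Log2 fold changes were positive for 13 of the 15 in Acute and 14 of 15 in Chronic mice, against 50.6% and 51% of all genes, with medians of 0.05 and 0.03. In Chronic mice *Gapdh* had 0.06 and *Ldhb* 0.06 at the high end and *Pfkp* -0.03 and *Pgk1* 0.00 at the low end. Of 13 glutathione genes, 0 had an unadjusted p under 0.05 against Water in either group; *Chac1* and *Chac2*, which degrade glutathione, had the highest Chronic values with 0.14 and 0.11, and *G6pdx* and *Gclc* the lowest with -0.02 and -0.01. In Chronic against Acute mice, *Slc7a11*, the cystine transporter gene, had 0.14 and *Oplah*, of the glutathione cycle, 0.13, both with an unadjusted p under 0.05, where 1.95% of all genes were higher.

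Of the 5 genes of D-lactate removal and of receptors for advanced glycation end products, *Prkcsh*, which encodes a receptor component and glucosidase subunit, had 0.08 in Acute and 0.11 in Chronic mice (unadjusted p = 0.0335 and 0.00306, edgeR adjusted p = 0.241 in Chronic mice). It was the 1 gene of the 5 under 0.05 unadjusted in either group, against 5.07% and 4.81% of all genes that were higher. *Ldhd*, the D-lactate dehydrogenase that removes the end product of *Hagh*, had 0.15 and 0.07, *Ddost* 0.06 and 0.02, *Ager*, the receptor RAGE, 0.16 and 0.18 on a mean of 10.86 counts, and *Lgals3* -0.40 and 0.08 on a mean of 20.25 counts.

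Of 10 genes of the Nrf2 pathway, which drives antioxidant genes, 2 had an unadjusted p under 0.05 in each drinking group, all with higher counts, against 5.07% (Acute) and 4.81% (Chronic) of all genes. *Srxn1*, a sulfiredoxin that the study also listed among its changed genes of these mice and that is therefore not independent evidence, had 0.14 in Acute (unadjusted p = 0.00026, edgeR adjusted p = 0.2) and 0.10 in Chronic mice (unadjusted p = 0.00494, adjusted p = 0.26). The other was *Prdx1*, a peroxiredoxin, in Acute (0.09) and *Keap1*, the Nrf2 inhibitor, in Chronic mice (0.07). *Nfe2l2*, which encodes Nrf2, had -0.06 and -0.05, *Nqo1* 0.01 and -0.07 and *Hmox1* -0.03 and 0.07.

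Of 11 Parkinson disease genes, the group to which *Park7* belongs by its human genetics, 4 were higher and 0 lower at an unadjusted p under 0.05 in both Acute and Chronic mice, and 0 after adjustment. Over all genes, 5.07% and 4.81% were higher and 4.45% and 5.65% lower at that p. *Pink1*, a mitochondrial quality control kinase, had 0.09 and 0.11 (unadjusted p = 0.0061 and 0.0013, edgeR adjusted p = 0.216 in Chronic mice), *Pla2g6*, a phospholipase, 0.10 and 0.12, *Uchl1*, a neuronal deubiquitinase, 0.09 and 0.10, and *Atp13a2*, a lysosomal transporter, 0.06 and 0.07. At the low end of the Chronic values were *Lrrk2* with -0.05 and -0.15 and *Vps35* with -0.01 and -0.04. The list medians were -0.01 and 0.03, and 5 and 6 of the 11 genes had a positive log2 fold change.

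**Figure D5:**
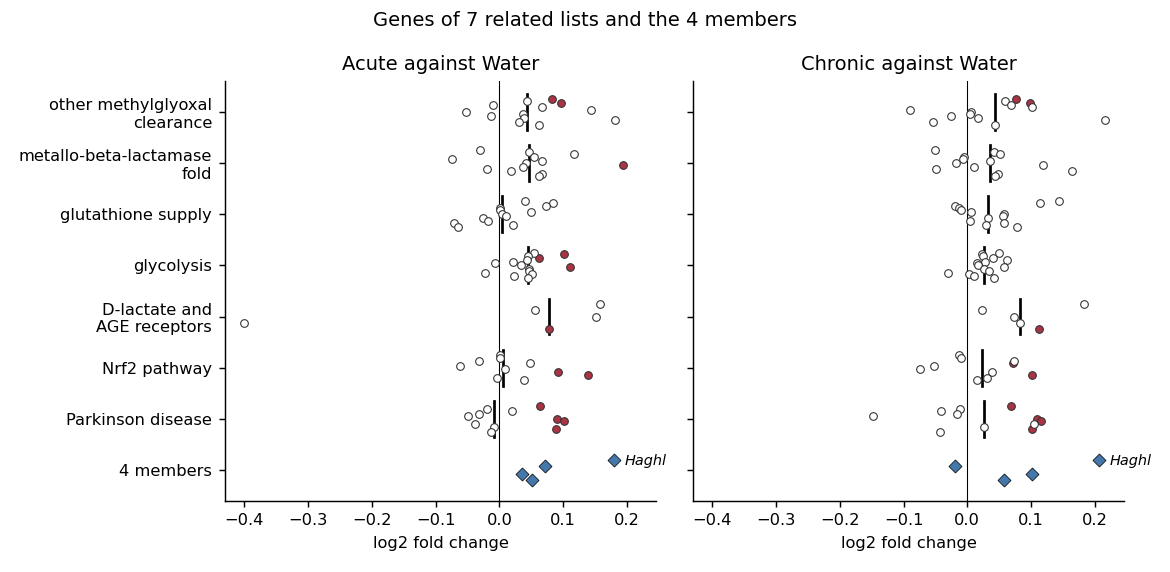
Log2 fold change against Water of each gene of 7 lists (circles, filled red at an unadjusted p under 0.05, with a bar at the list median) and of the 4 genes described here (diamonds), for Acute and Chronic mice. *Haghl* lies at 0.18 and 0.21, with 2 listed genes above it in Acute mice (*Dcxr* and *Ethe1*) and 1 in Chronic mice (*Dcxr*).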

How the data were processed

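The authors quantified 100-base paired-end reads with Salmon 0.14.1 on GRCm38 transcripts and deposited whole-number counts per gene and mouse in a table for each batch, without normalization or batch adjustment. GENCODE M21 held every gene identifier of the first table and 50047 of the 51073 of the second, and tables were joined on identifiers without version. A mouse's group and batch came from its label. Genes that averaged 10 or more counts were kept. In R 4.3.3, edgeR 4.0.16 (TMM, quasi-likelihood test, 2-sided, batch as a covariate, all 3 groups) was followed by Benjamini-Hochberg adjustment over all genes kept with a threshold of 0.05. Exact tests enumerated every regrouping within batches of log2 CPM (prior count 2); covariation used 100000 permutations within batches. DESeq2 1.42.0, limma 3.58.1 and ComBat-seq (sva 3.50.0) served as alternatives. Scripts were tested on simulated data. No mouse column was left out, and none of 55 pairs of mice of the same batch and group was a duplicate.

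The 4 genes and the gene lists were chosen with earlier results of these data known. Named genes were the 4 members, all genes of 2 lists (other methylglyoxal clearance; D-lactate and AGE receptors), the 2 highest and 2 lowest Chronic log2 fold changes of each other list, neighboring and overlapping genes, and the 5 most alike genes per member, of which 1 is not reported here. *Aldoc*, *Eno2*, *Prdx1*, *Keap1*, *Uchl1*, *Atp13a2*, *Slc7a11*, *Oplah*, *Btbd9* and *Glp1r* were named after their values were seen.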

Additional observations from a re-analysis of the deposited data

Results flagged for a closer look

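Of 12 combinations of a gene and a group, 2 held a mouse far from the rest of its group on the log2 CPM scale with batch means removed; by chance this happens in about 1 of 20 groups. *Glo1* in Acute mouse 35 of the first batch was at -4.32, with 0 counts against 57 to 71 in the other Acute mice of that batch. *Park7* in Acute mouse 3 of the second batch was at 0.11, with 1211 counts.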

How the results depend on the processing

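The log2 fold changes of *Haghl* against Water kept their sign in every alternative: in Acute mice they were 0.1484 to 0.1866 (0.1591 to 0.1941 with 1 mouse left out), in Chronic mice 0.1521 to 0.2116 (0.1834 to 0.2238), both lowest with offsets for gene GC content and length. *Hagh*, *Glo1*, *Park7* and *Haghl* between the drinking groups stayed over an adjusted p of 0.05 in every alternative and with any mouse left out. At an unadjusted p under 0.05, *Hagh* in Chronic against Acute mice passed in the first batch alone, with the offsets, with limma-voom, with ComBat-seq, and without Acute mouse 4 or 5, and in Acute against Water mice it passed in the first batch alone, with ComBat-seq and DESeq2, and without Acute mouse 5. *Park7* passed at that p in Chronic against Water mice without Water mouse 2. The sign turned for *Glo1* in Acute mice with ComBat-seq (-0.1169 with DESeq2, -0.1182 with edgeR), in the first batch alone (-0.0552) and with limma-voom (-0.0089); for *Glo1* in Chronic against Acute mice in the second batch alone (-0.0257); and for *Park7* there in the first batch alone (-0.0133), with limma-voom (-0.0018) and with the offsets (-0.0022). Restricting the exact tests of *Glo1* to the second batch, a step added after its counts were seen, gave 0.0582 in Acute mice and -0.0263 between the drinking groups, against -0.3051 and 0.4771 over both batches. Leaving out 1 mouse moved *Hagh* in Chronic mice between -0.0351 and 0.0046 (above 0 without Water mouse 2), *Glo1* in Chronic against Acute mice between -0.0004 and 0.1019 (below 0 without Acute mouse 35), and *Park7* there between -0.0103 and 0.0237 (below 0 without Chronic mouse 39, 1 or 4). The cause was not tested.

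Adjusted calls over all genes went from 0 to 8 (Acute) and from 3 to 36 (Chronic) with DESeq2, to 30 and 88 with ComBat-seq and DESeq2, and to 5 (Chronic) with ComBat-seq and edgeR. They were 2 (Acute) with limma-voom, 1 (Acute) and 1 (Chronic against Acute) with no filter, 1 (Chronic) with the offsets and 0 (Chronic) in the first batch alone. With 1 mouse left out they ran from 0 to 2 in Acute mice (2 without Chronic mouse 38, 1 without Acute mouse 34) and from 2 to 6 in Chronic mice (6 without Water mouse 3). Unadjusted counts ran from 824 to 2525 (Acute) and from 577 to 2571 (Chronic) over the alternatives. By ranks, *Haghl* had 0.438 with *Hagh* and 0.359 with *Park7*, and *Glo1* had 0.305 with *Haghl* and 0.0334 with *Park7*; with batch means alone removed, *Haghl* had 0.357 with *Hagh* (adjusted permutation p = 0.138).

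The second batch's labels number mice 1 to 5 in the Acute group and 1 to 6 in the Chronic and Water groups. Profiles of same-numbered mice correlated over 0.1 in 4 of 16 pairs (-0.346 to 0.338), so the numbers were not taken as pairs; with a replicate block, *Haghl* had 0.1783 and 0.2075, and the adjusted calls over all genes were 0, 3 and 0.

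*Glo1* had 0 to 87 raw counts per mouse in the first batch, which limits what can be seen of it there.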
